A study of Vitis vinifera with 11 samples.

Results

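Among 25771 genes measured in grapevine (Vitis vinifera), 56 had a tendril level at node 3 of at least 10 RPKM (reads per kilobase of gene and per 1e6 mapped reads) and at least 4 times the level at both node 1 and node 2. The thresholds were met by 57 genes, and 1 gene number was left out by the rule. The members were therefore selected on the 3 tendril values, with 1 library at each node, and those values are given below as a description with no test. Members made up 0.561% of the 9976 genes of at least 10 RPKM in the node 3 tendril. The same thresholds applied to the other tendril nodes gave 2 genes for node 1 and 49 for node 2. The mirror rule, with at least 10 RPKM and 4 times node 3 at both upper nodes, gave 441 genes.

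A grapevine tendril and an inflorescence arise from the same kind of uncommitted primordium at the shoot tip, and conditions there decide which organ it becomes. A tendril farther from the apex is older: it elongates, becomes sensitive to touch, coils around a support, and then stiffens as its tissue lignifies. An inflorescence farther from the apex carries more advanced branches and flower primordia. Node position is thus a series of developmental stages in both organs.

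Messenger RNA was sequenced from single-end Illumina libraries of plants kept under controlled long days. Tendrils of nodes 1, 2 and 3, counted from the apex, were taken from Pinot Meunier L2, the control vine, with 1 library per node. Inflorescences of the same nodes came from 2 picovine genotypes (dwarf vines), 06C021V0046 and 06C008V0003, with 1 library of each genotype per node. The leaves were pools of the 3 nodes, 1 pool for 06C021V0046 and another for Pinot Meunier L2. Organ and genotype thus changed together between tendrils and inflorescences and cannot be told apart. The series describes the picovine genotypes as biological replicates, so p-values measure a spread that includes genotype. The collection protocol writes one picovine line as 04C021V0046, and the spelling of the sample labels is kept here.

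Depth was 9.92, 7.36 and 15.18 M reads (M, 1e6) in the tendril libraries of nodes 1, 2 and 3, so node 3 was read most deeply. It was 11.36 to 14.55 M in inflorescences, and 9.21 and 14.99 M in the leaf pools (06C021V0046 first, here and below). The organ labels were compared with marker genes. These were taken from earlier results of these data, so they are no independent check. AP1 measured 161.6, 119.5 and 297.9 RPKM, and VFUL-L 69.3, 68.5 and 77.0 RPKM, in tendrils of nodes 1, 2 and 3; both are MADS-box genes known from tendrils as well as inflorescences. The summed level of 6 floral organ markers (MADS9, TM6, AP3, AG, MADS1 and MADS2) was 0.927 to 1.15 RPKM in tendrils against 1191 to 2222 RPKM in inflorescences, and AP3, needed for petals and stamens, had 0 reads in the node 3 tendril. The 3 leaf markers (NDHM, PSBP1 and PR1) summed to 765.8, 880.2 and 190.6 RPKM along the tendril nodes to 671.5 to 1722 RPKM in inflorescences and to 3712 and 1512 RPKM in the leaf pools, so the sum did not separate leaves from inflorescences. Most of the tendril sum was PSBP1, a photosystem II protein (751.9, 867.9 and 175.3 RPKM), which at nodes 1 and 2 exceeded its level in both leaf pools (337.0 and 636.8 RPKM). The part of these markers in the pattern of the 56 genes was not tested. In bulk tissue, fewer cells of a type and less RNA per cell cannot be told apart.

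Of the 56 genes, 45 were found in the RefSeq table of assembly ASM3070453v1, all 45 as protein coding, and 11 were not. A symbol other than a locus number existed for 1 of them, IFRL4, an isoflavone reductase-like protein. Proteins of that family in other plants reduce phenylpropanoid-derived compounds. The other genes are given by locus number, or by the gene number of the files where the table had no entry, and no role is assigned to them.

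The 56 genes had a median of 23.4 RPKM in the node 3 tendril (range 10.5 to 2394), against 4.19 RPKM at node 1 (0 to 550) and 1.11 RPKM at node 2 (0 to 72.0). Behind the node 3 values stood 57 to 45821 reads (median 350.5). Of the genes, 6 reached 100 RPKM or more and 24 were under 20 RPKM. Their reads together made up 0.183% of the library at node 1, 0.026% at node 2 and 0.871% at node 3.

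The course along the tendril was not a steady climb for most of them. The level at node 1 was above that at node 2 in 52 of the 56, against 50.2% of genes with a read in either. With a node under 3 reads set to 3 reads, node 1 was at least 2 times node 2 in 32 of them. The reverse of this 2-fold difference held for 1 of the 56. Without that floor, node 1 was at least 2 times node 2 in 7.92% of genes of at least 1 RPKM at either node. In those 52 genes node 2 was thus the lowest of the 3 tendril libraries. These are values that the rule used, from 1 library per node. In the shallow node 2 library, 18 members had fewer than 3 reads and 11 of these had 0.

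**Figure D1:**
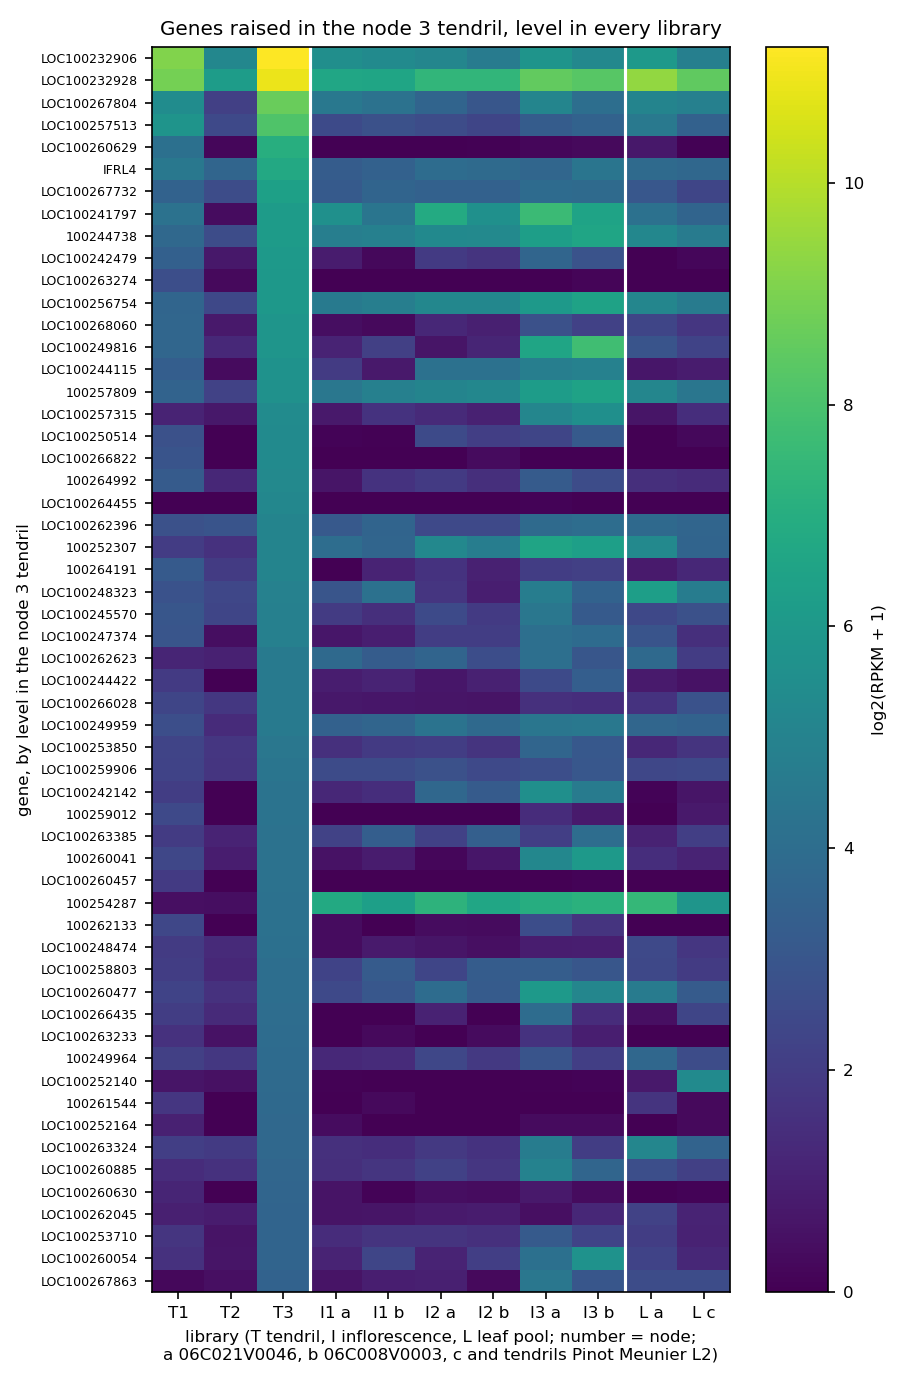
Level of each of the 56 genes, as log2(RPKM + 1), in the 11 libraries, with genes ordered by their level in the node 3 tendril. The node 3 tendril column stands above nodes 1 and 2 because the rule chose it so; the inflorescence and leaf columns were not used by the rule, and 13 genes were highest in a node 3 inflorescence and 4 in a leaf pool.

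LOC100232906 and LOC100232928 held 64.8% of all reads of the 56 genes in the node 3 tendril. LOC100232906 measured 550.0, 35.7 and 2394 RPKM in tendrils of nodes 1, 2 and 3, 46.1 and 39.9, 34.3 and 24.2, and 54.9 and 36.4 RPKM in inflorescences of nodes 1, 2 and 3 (06C021V0046 first), and 64.8 and 28.0 RPKM in the leaf pools. Tendrils of nodes 1 and 3 were far above every other library, while the node 2 tendril lay within the range of inflorescences and leaves.

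LOC100232928 measured 468.4, 72.0 and 1888 RPKM along the tendril, 99.9 and 94.8, 166.3 and 168.7, and 369.1 and 312.7 RPKM along the inflorescence nodes in the same order, and 686.2 and 354.1 RPKM in the leaf pools. It was abundant in leaves too, and climbed with node in inflorescences without overlap between nodes.

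LOC100267804 measured 43.3, 3.43 and 404.9 RPKM in tendrils of nodes 1, 2 and 3, against 6.94 to 33.0 RPKM in the 6 inflorescences and 32.9 and 28.4 RPKM in the leaf pools. LOC100257513 measured 55.4, 4.5 and 277.9 RPKM in tendrils, against 4.12 to 10.4 RPKM in inflorescences and 22 and 10.1 RPKM in the leaf pools. Both thus repeated the order node 3, node 1, node 2. In the reference order these genes lie close together, with 1 protein-coding gene between them, LOC100262648, which measured 83.2, 198.4 and 51.8 RPKM and so had the opposite order.

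LOC100260629 measured 16.9, 0.144 and 129.4 RPKM in tendrils, from 317, 2 and 3717 reads. It measured at most 0.224 RPKM in the 6 inflorescences and measured 0.632 and 0.0353 RPKM in the leaf pools. IFRL4 measured 21.4, 11.7 and 110.0 RPKM in tendrils, 8.75 and 10.1, 14.8 and 13.9, and 11.9 and 19.6 RPKM in inflorescences of nodes 1, 2 and 3, and 13.8 and 12.5 RPKM in the leaf pools. All 8 libraries of other organs lay near its node 1 and node 2 tendril levels, and the node 3 tendril stood alone.

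The ratio of node 3 to the higher of nodes 1 and 2 ran from 4.0 to 87.6, with a median of 5.46. It was at least 10 for 9 genes and under 5 for 21. Counting error was considered with exact conditional 95% intervals for the ratio of reads. The lower bound lay above 4 against both nodes for 27 of the 56, so the remaining genes could sit on either side of the threshold by counting error alone. These intervals do not cover variation between plants, which a single library per node cannot show.

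LOC100264455 had 542 reads at node 3 (36.0 RPKM) and 0 reads at nodes 1 and 2. With nodes 1 and 2 set to a floor of 3 reads per library, it was at least 87.6-fold higher than node 2 and at least 118.1-fold higher than node 1; the lower bounds of the exact 95% intervals, which also cover the counting error at node 3, were 71.0 and 95.7. Elsewhere it reached only 0.0702 RPKM, in the node 3 inflorescence of 06C021V0046, so among the 11 libraries it was read almost solely in the node 3 tendril.

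LOC100257315 measured 1.16, 0.669 and 41.2 RPKM in tendrils, a ratio to node 1 of 35.6 (interval 21.1 to 65.4). Gene 100254287 measured 0.388, 0.348 and 17.4 RPKM in tendrils, from 3, 2 and 206 reads, and the ratio to node 1 was 44.9 (15.1 to 219.5). Every library of another organ was above the node 3 tendril for this gene, at 80.2 to 149.9 RPKM in the 6 inflorescences and 175.5 and 57.2 RPKM in the leaf pools.

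LOC100267863 measured 0.166, 0.372 and 10.5 RPKM in tendrils, a ratio to node 2 of 28.1 (11.9 to 87.3). LOC100252140 measured 0.546, 0.409 and 13.6 RPKM in tendrils, a ratio to node 1 of 24.9 (13.0 to 55.0). LOC100252140 measured at most 0.0851 RPKM in the 6 inflorescences, but measured 0.719 RPKM in the leaf pool of 06C021V0046 and 39.8 RPKM in that of Pinot Meunier L2. The leaf pool with the high value thus shared its genotype with the tendrils.

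**Figure D2:**
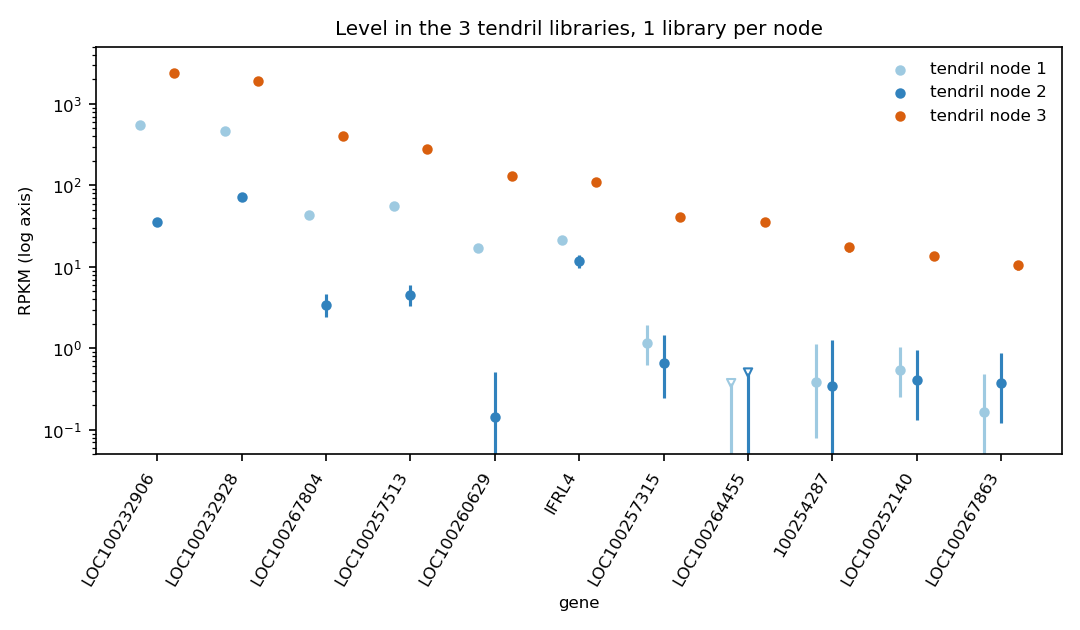
RPKM on a log axis in the tendrils of nodes 1, 2 and 3 for 11 of the genes, those with the highest node 3 level, the largest ratios and IFRL4. Vertical bars are exact Poisson 95% intervals, cut at the foot of the axis, and open triangles mark the upper bound where 0 reads were counted, as for LOC100264455 at nodes 1 and 2.

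The thresholds passed through a dense range of values. Just inside the level threshold, LOC100267863 measured 10.5 and LOC100260054 11.1 RPKM at node 3, and just outside it LOC100249617 measured 9.45 and LOC100247540 8.98 RPKM. Just inside the fold threshold, the ratio was 4.0 for LOC100241797 and 4.01 for 100264191, and just outside it 3.98 for LOC100255952 and 3.95 for 100242958.

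The inflorescence libraries, which the rule did not use, showed how many of these genes also rose with node in the other organ. On log2(RPKM + 1), limma compared inflorescence node 3 with the mean of nodes 1 and 2 over 19408 genes, and genes were called at a Benjamini-Hochberg adjusted p of 0.05. Of the 56 genes, 24 rose (42.9%), whereas 7.83% of all genes tested were called higher. None, 0 of 56, was called lower by limma, against 12.4% of all genes tested. At an unadjusted limma p of 0.05, 0 were lower, and the share of all genes at that cutoff was not computed. Limma-voom on the recovered reads also called 0 lower, against 2383 of all 19408 genes. Over the 56 genes the median log2 change was 1.14, against -0.03 over all genes with a read, and it was positive in 54 of 56 against 43.4%. These counts include 11 genes below the low-value filter. For LOC100264455, LOC100263274 and LOC100260457 the sign rests on 1 read over the 6 inflorescences.

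The low-value filter left 45 of the 56 genes to be tested, and 1 of these, 100262133, passed it only through the node 3 inflorescences. It is among the 24 that rose, so 23 of the calls do not depend on that filter; the 11 untested genes count as not called. Without the node 3 library of 06C021V0046, most calls were lost, among the 56 and over all genes, and no called rise reversed. The log2 rise was then larger for some genes (LOC100260054, 4.05 against 3.26). For others it was smaller (LOC100267863, 2.3 against 3.02). With genotype as a block, 36 of the 56 were called, all 24 among them, and 4518 of all genes. In the fit without that library, the lone remaining node 3 library is assumed to vary like the other groups.

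Without any model, both node 3 inflorescences were above all 4 libraries of nodes 1 and 2 in 35 of the 56, against 18.8% of genes with a read and 26% of the genes of at least 10 RPKM in the node 3 tendril. In 0 of the 56 were both below, and the share of all genes with both below was not computed. A rule of the same shape as the tendril rule was met at inflorescence node 3 in both genotypes by 153 genes, and 7 of the 56 were among them. Those 7 are 12.5% of the tendril genes and 4.58% of the 153.

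LOC100249816 had the largest rise. It measured 1.14 and 3.37 RPKM at inflorescence node 1, 0.571 and 1.22 at node 2 and 95.1 and 221.4 at node 3 (06C021V0046 first), 12.1, 1.47 and 56.4 RPKM in tendrils of nodes 1, 2 and 3, and 6.65 and 3.85 RPKM in the leaf pools. The inflorescence change was 5.94 ± 0.44 (log2, SE; limma adjusted p = 0.000375). Node 3 was the highest node in both organs and both inflorescence genotypes, and the inflorescence level exceeded that of the tendril.

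Gene 100260041 measured 0.443 and 0.795, 0.157 and 0.616, and 35.8 and 63.5 RPKM along the inflorescence nodes, 4.31, 0.847 and 17.9 RPKM along the tendril, and 1.74 and 1.19 RPKM in the leaf pools. Its inflorescence change was 5.04 ± 0.32 (limma adjusted p = 0.000296). Like LOC100249816, it had some reads in the node 1 tendril and few at inflorescence nodes 1 and 2.

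LOC100257315 measured 0.681 and 2.14, 1.52 and 1.07, and 34.1 and 47.1 RPKM along the inflorescence nodes and 0.535 and 1.81 RPKM in the leaf pools. Its change was 4.16 ± 0.37 (limma adjusted p = 0.000824). The node 3 levels of inflorescences and of the tendril (41.2 RPKM) were alike, so a gene of low level at nodes 1 and 2 was high at node 3 in all 3 genotypes.

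LOC100260054 measured 1.18 and 4.15, 1.19 and 3.18, and 16.6 and 51.8 RPKM along the inflorescence nodes, 2.05, 0.553 and 11.1 RPKM along the tendril, and 3.76 and 1.4 RPKM in the leaf pools. Its change was 3.26 ± 0.56 (limma adjusted p = 0.00909). The level in 06C008V0003 was above that in 06C021V0046 at every node. LOC100267863 measured 0.499 and 0.903, 1.01 and 0.211, and 20.9 and 6.97 RPKM along the inflorescence nodes and 5.18 and 5.19 RPKM in the leaf pools, and changed by 3.02 ± 0.42 (limma adjusted p = 0.0051). Without the node 3 library of 06C021V0046, the calls of LOC100260054 and LOC100267863 were lost (highest adjusted p 0.0512 and 0.0676), whereas those of LOC100249816, 100260041 and LOC100257315 held in every alternative (highest adjusted p 0.0205, 0.0131 and 0.0186).

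**Figure D3:**
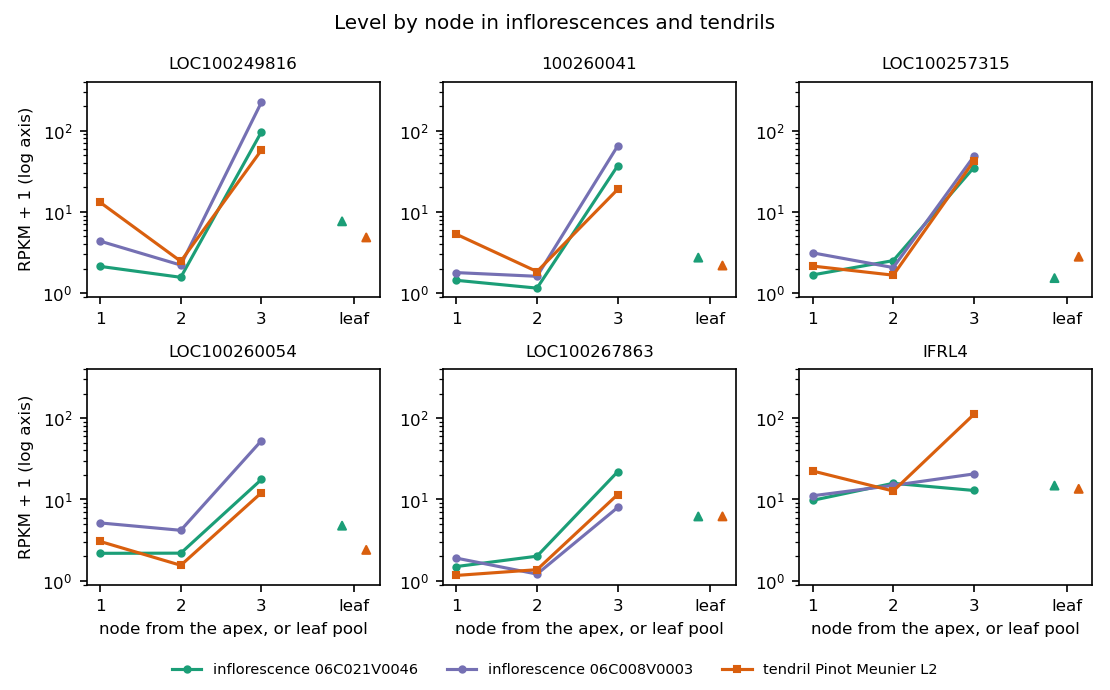
RPKM + 1 on a log axis by node for the 5 genes with the largest inflorescence rise and for IFRL4, with circles for the inflorescences of each picovine genotype, squares for tendrils and triangles for the leaf pools (left 06C021V0046, right Pinot Meunier L2). The first 5 panels climb at node 3 in both organs; in IFRL4 the climb to 110.0 RPKM is seen in the tendril and inflorescences stay between 8.75 and 19.6 RPKM.

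LOC100249816 and LOC100260054 are also near neighbours in the reference order, with 2 protein-coding genes between them. LOC100254961, one of these, measured 0.495, 0.0953 and 2.27 RPKM in tendrils of nodes 1, 2 and 3, and 6.07 and 22.5 RPKM at inflorescence node 3 against 0.756 to 3.86 RPKM at nodes 1 and 2. The next gene beyond LOC100260054, LOC100265260, measured 1.09, 0.277 and 3.58 RPKM in tendrils and 7.76 and 24.0 RPKM at inflorescence node 3 against 1.49 to 3.64 RPKM at nodes 1 and 2. LOC100249816, LOC100254961, LOC100260054 and LOC100265260 thus had the same order of nodes in the tendril, and node 3 as the highest inflorescence node. The tendril values of LOC100254961 rest on 7, 1 and 49 reads, and those of LOC100265260 on 16, 3 and 80. On the other side of LOC100249816, the next gene, LOC100244682, was flat along the tendril (235.2, 236.6 and 232.3 RPKM). No sequences were compared, so whether the 4 genes of like order are similar copies that share reads was not tested. How the authors assigned shared reads is not given in the sources used here.

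Inflorescence changes of the tested genes most abundant in the node 3 tendril lay on both sides of the median of all members (log2, 1.14). Whether the inflorescence change went with the tendril level was not tested. LOC100232928 rose by 1.40 ± 0.29 (limma adjusted p = 0.0154), a call lost without 1 of 2 libraries (inflorescence node 2 of 06C008V0003 or node 3 of 06C021V0046; highest adjusted p 0.149). LOC100232906 changed by 0.34 ± 0.35 (limma adjusted p = 0.513), LOC100267804 by 0.74 ± 0.33 (0.137), LOC100257513 by 0.83 ± 0.33 (0.11) and IFRL4 by 0.37 ± 0.26 (0.334), and none of these 4 passed the test. With genotype as a block, LOC100267804 (adjusted p = 0.00725) and LOC100257513 (0.00467) passed, whereas LOC100232906 (0.0591) and IFRL4 (0.12) did not. LOC100260629 was below the filter.

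**Figure D4:**
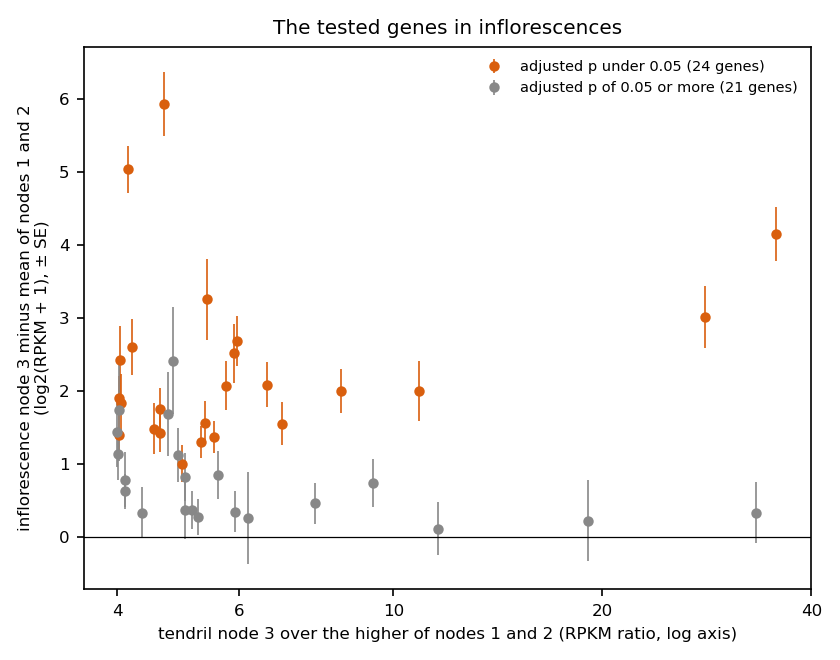
Inflorescence change (node 3 minus the mean of nodes 1 and 2, log2(RPKM + 1), bars ± SE) of the 45 tested genes against the tendril ratio of node 3 to the higher of nodes 1 and 2, on a log axis. The 24 genes with an adjusted p under 0.05 (orange) are found along the whole range of ratios, as are the other 21 (grey).

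At a detection level of 1 RPKM, 38 of the 56 genes were found in tendrils, inflorescences and leaves, 8 in tendrils and inflorescences, 3 in tendrils and leaves, and 7 in tendrils alone. The 7 were LOC100260629, LOC100263274, LOC100266822, LOC100264455, LOC100260457, LOC100252164 and LOC100260630, with 11.5 to 129.4 RPKM in the node 3 tendril. LOC100263274 measured 5.41, 0.202 and 62.2 RPKM along the tendril and at most 0.105 RPKM elsewhere. LOC100260457 measured 2.76, 0 and 17.6 RPKM along the tendril and at most 0.0842 RPKM elsewhere. These genes were thus read in the node 1 tendril as well, except LOC100264455.

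The node 3 tendril was the highest of all 11 libraries for 39 of the 56 genes, and at least 4 times each of the 8 libraries of other organs for 20. A node 3 inflorescence was highest for 13 and a leaf pool for 4 (LOC100248323, 100254287, LOC100263324 and LOC100252140). The node 3 tendril exceeded both leaf pools for 50 genes and both node 3 inflorescences for 41. The summed level of the 56 genes was 6682 RPKM in the node 3 tendril, 1747 and 1651 RPKM in the node 3 inflorescences of 06C021V0046 and 06C008V0003, and 488.3 to 790.3 RPKM at inflorescence nodes 1 and 2. The high standing of the node 3 tendril in these counts and sums follows in part from the rule, which chose genes by that value. The shares of all genes with the same standing were not computed.

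The same fit compared inflorescences with leaves. By limma, 6 of the 56 (10.7%) were higher in inflorescences than in leaves, against 6.89% of all genes tested, and 5 (8.93%) were lower, against 8.72%. Over the 45 genes tested, the shares were 13.3% and 11.1%, and 13 were higher and 11 lower at an unadjusted limma p of 0.05. The shares of all genes at that unadjusted cutoff were not computed. Whether the called shares differ from those of all genes was not tested. The median log2 difference was 0.21 over the 56 genes and 0.01 over all genes with a read. With genotype as a block, the Pinot Meunier L2 leaf pool has its own term, so the comparison rests on the leaf pool of 06C021V0046. No count is given for that fit. After quantile normalization 10 were higher, against 1584 of all 19408 genes tested. The count of lower genes was 2 without the leaf pool of 06C021V0046, and 3 without any 1 of the 4 inflorescence libraries of nodes 1 and 2.

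Higher in inflorescences were LOC100242142, LOC100244115, LOC100241797, LOC100242479, LOC100250514 and LOC100257315, by 1.53 to 2.96 on the log2 scale. LOC100242142 measured 1.41 and 1.73, 12.6 and 8.42, and 46.7 and 24.4 RPKM along the inflorescence nodes, 0.0803 and 0.543 RPKM in leaves, and 3.13, 0 and 18.6 RPKM along the tendril (inflorescence minus leaf 2.96 ± 0.32, limma adjusted p = 0.000956). It was near absent from leaves and climbed at each inflorescence node, whereas the node 2 tendril had no read of it. The call of LOC100241797 was lost without the leaf pool of Pinot Meunier L2 (adjusted p 0.137), and that of LOC100257315 without the leaf pool of 06C021V0046 and by limma-voom (highest adjusted p 0.102).

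Lower in inflorescences were LOC100248323, LOC100232928, LOC100248474, LOC100266028 and LOC100257513. LOC100248323 measured 6.9 and 17.3, 2.35 and 0.914, and 26.4 and 10.5 RPKM along the inflorescence nodes, 77.0 and 25.5 RPKM in leaves, and 6.19, 4.17 and 29.4 RPKM along the tendril (inflorescence minus leaf -2.48 ± 0.53, limma adjusted p = 0.0172). Its lowest node was node 2 in both organs. The call was lost without the leaf pool of 06C021V0046 (highest adjusted p 0.104). The calls of LOC100257513 (-1.16 ± 0.31) and LOC100266028 (-1.30 ± 0.31) were the least stable of these 5, lost in 9 and 8 of 15 alternatives (highest adjusted p 0.151 and 0.126).

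The leaf pools, 1 library per genotype, were set side by side with no test. The pool of 06C021V0046 was at least 2 times that of Pinot Meunier L2 for 14 of the 56 genes, and the reverse held for 5; over all genes of 1 RPKM in a leaf pool the shares were 8.72% and 14.5%. The Pinot Meunier L2 leaf, of the same genotype as the tendrils, was thus not the pool in which more of the genes were high.

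Several of the 56 were very short gene models. Lengths recovered from the RPKM steps had a median of 1126 bases over the 56 genes and 1500 over all genes, and 9 of the 56 (16.1%) were 286 to 298 bases long. A band of 280 to 300 bases, set after the lengths had been seen, held 52 of 24365 genes (0.213%), so 17.3% of the genes in the band were members. In that band, the 9 members are high at node 3 by the rule, so only the other 43 genes are counted here. Of these, 15 (34.9%) were at least 2 times higher in the node 3 tendril than at both other nodes with at least 1 RPKM, as were 4.0% of all 20355 genes of at least 1 RPKM in a tendril. The node 3 tendril was above both other nodes for 28 of the 43 and below both for 8. The band was drawn around genes selected on these same libraries, so these counts are a description. The 9 members had 13.0 to 40.6 RPKM at node 3 from 57 to 182 reads, so their values carry more counting error than those of longer genes.

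Of these 9, 3 lie in a single run of neighbours in the reference order, with 8 genes of 292 to 313 bases in the deposited tables and 1 further gene not in them. LOC100244422 measured 2.76, 0 and 23.2 RPKM along the tendril, 4.77 and 9.21 RPKM at inflorescence node 3 and 0.603 to 1.18 RPKM at inflorescence nodes 1 and 2, a rise of 2.01 ± 0.30 (limma adjusted p = 0.00619). LOC100263233 measured 2.03, 0.456 and 14.8 RPKM along the tendril, and LOC100266822 6.49, 0 and 40.6 RPKM. All 3 were in the order node 3, node 1, node 2.

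The other 5 genes of the run were outside the thresholds. Among them, LOC100240974 measured 23.2, 1.3 and 60 RPKM along the tendril and LOC100256532 11.9, 0.868 and 34.1 RPKM. The node 3 tendril was above nodes 1 and 2 for all 8 genes of the run. For the 3 members this follows from the rule, so only the other 5 genes add to the description. The share of all genes with this order was not computed. Whether these neighbours are similar copies between which reads were split was not tested, and their values are uncertain to that extent.

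**Figure D5:**
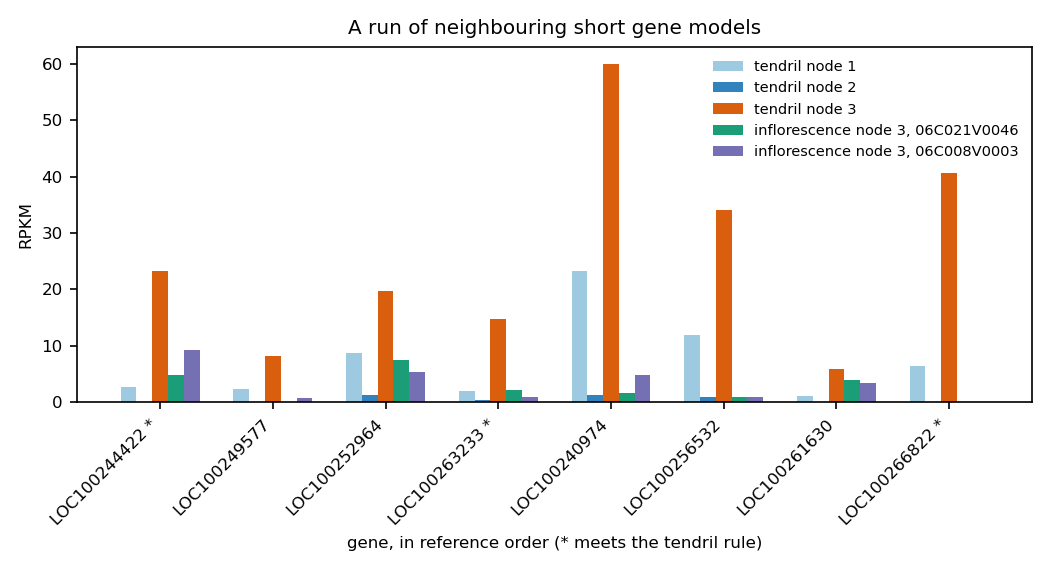
RPKM of the 8 neighbouring short genes in the tendrils of nodes 1, 2 and 3 and the node 3 inflorescences of both picovine genotypes, with asterisks on the 3 genes that met the tendril rule. In each gene the node 3 tendril bar is the highest of the tendril bars; the highest reaches 60 RPKM in LOC100240974, which missed the rule because node 1 stood at 23.2 RPKM.

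A further 3 members had near-equal profiles over the 11 libraries: LOC100256754, 100244738 and 100257809. They measured 61.7, 71.2 and 50.1 RPKM in the node 3 tendril, 11.7, 12.9 and 10.8 RPKM at node 1, and 4.4, 5.02 and 3.58 RPKM at node 2. Pairwise Pearson correlations over the 11 libraries were 0.992 to 0.998, and the largest log2 difference within any library was 0.5. All 3 rose in inflorescences by 1.31 to 1.43 (limma adjusted p 0.0073 to 0.0103), and all 3 calls were lost without the node 3 inflorescence of 06C021V0046 (highest adjusted p 0.0725 to 0.0992). Whether they are separate genes or share reads is uncertain, since 2 of them have no entry in the reference.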

How the data were processed

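The authors deposited RPKM values, 1 for each gene number in each library, as the deposited files name the unit. Per the submitters' processing notes, Bowtie 0.12.7 and TopHat 1.2.0 were used. Neither a genome build, an annotation nor a counting tool is given in the sources used here. Symbols and gene order came from the RefSeq table of assembly ASM3070453v1, which held 72.4% of the gene numbers. No coordinates or sequences are printed.

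Whole reads and gene lengths were recovered from the RPKM steps for all 24365 genes with a value (100% whole, tolerance 0.01 read), and summed to nearly the whole depth (15179594 of 15179971 reads in the node 3 tendril). They gave the exact 95% intervals and the floor of 3 reads, which cover counting error only.

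The members, marker genes and gene lists were chosen with earlier results of these data known. The test was limma 3.58.1 in R 4.3.3, two-sided, with a variance trend, on log2(RPKM + 1), which understates changes of low genes. It was fitted to the 6 inflorescences and 2 leaf pools, as 4 groups, over 19408 genes of at least 1 RPKM in at least 2 libraries, with 4 residual and 4.38 prior degrees of freedom. Tendrils were left out of it. The procedure was tested on simulated data. A count model was not the main test because the files hold no counts; limma-voom on recovered reads was added after the data were seen. Replicate 1 was 06C021V0046 and replicate 2 06C008V0003, so genotype pairs the inflorescences; their difference correlated between nodes across genes (0.631 for nodes 1 and 2, 0.547 for 1 and 3, 0.692 for 2 and 3).

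By rule the text names members with a symbol, the 5 with the highest node 3 tendril level, the 5 with the largest ratio, the 5 largest called rises and falls at inflorescence node 3, and the genes next to each threshold. Other genes were named after their values were seen. Alternatives were other thresholds, pseudocounts, filters, scalings, the genotype block, a node slope, inflorescences alone, and each library left out.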

Additional observations from a re-analysis of the deposited data

How the results depend on the processing

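With a fold of 3 the tendril rule gave 114 genes and with a fold of 6 it gave 21, and with a node 3 minimum of 20 RPKM it gave 32. Median-ratio scaling kept 55 of the 56 and quantile normalization 54. The 24 genes higher at inflorescence node 3 became 4 to 29 when 1 library was left out, 36 with genotype as the replicate block and 25 by limma-voom; over all genes the 1519 calls became 4518 with the block and 89 to 2230 with 1 library left out. Of all calls at that node, 38.6% were higher, and 52.6% after median-ratio scaling, which moved the median of all genes from -0.1 to 0.04; 26 of the 56 genes were then called. The 6 genes higher in inflorescences than leaves became 10 after quantile normalization and 5 to 9 with 1 library left out. The 5 lower became 4 after quantile normalization, and some of these calls were lost when 1 library was left out. No count of them is given with the block, where the comparison rests on 1 leaf pool. Of 35 single calls, 11 held in every setting in which they could be fitted and 0 reversed. Of these 11, 9 were run in every setting; 100262133 failed the low-value filter without either node 3 inflorescence, and LOC100248474 without either leaf pool. The cause of these shifts was not tested. Depth limits the node 2 tendril most, where 3 reads of a 1 kilobase gene are 0.408 RPKM.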

Other observations

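Lists of genes with known symbols held no member of the 56; 316 gene numbers in all could be paired with a symbol or synonym. Their tendril values are set beside the members with no test; a gene is counted as high or low when node 3 was at least 2 times above or below both other nodes, as for 4.0% and 9.82% of all genes of at least 1 RPKM. Both genes of the wall loosening and pectin list were high: PL1, a pectate lyase, measured 237.5, 47.5 and 605.5 RPKM along the tendril nodes, and GRIP28 284.2, 102.3 and 578.4 RPKM. Both had the order node 3, node 1, node 2 that most of the 56 genes had. Ripening-related genes had 2 of 8 high, one of them again GRIP28, and stilbene and flavonoid genes 3 of 18 high and 3 low. Of the flavonoid genes, LAR1, leucoanthocyanidin reductase, measured 24.7, 9.42 and 50.6 RPKM, while the chalcone synthase CHS1 measured 451.0, 487.7 and 107.6 RPKM.

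Defence genes had 2 of 24 high and 1 low. The lignin list had 0 of 4 high and 1 low, 4CL (139.6, 133.2 and 28.7 RPKM), which activates the precursors of lignin and flavonoids. Hormone genes had 0 of 14 high and 2 low, transcription factors 0 of 29 high and 3 low, chaperones 0 of 3 high and 1 low, and photosynthesis 0 of 3 high and 1 low. Of 15 sugar genes and 11 water channels, 0 were high and 0 low, and the lipid and cuticle list matched 0 genes.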
